A study of Mus musculus with 2 samples.

Results

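The axon guidance ligands and receptors described here are the ephrins and Eph receptors, the semaphorins with their plexin and neuropilin receptors, the Slits and Robos, and the netrins with Dcc and the Unc5 receptors. Members are every protein-coding gene of the mm10 RefSeq table whose symbol belongs to these families, and no measured value enters that rule, although the families were picked with earlier results of these data known. This gave 71 genes of 21887, of which 37 encode ligands and 34 encode receptors. H3K27me3, the trimethyl mark on lysine 27 of histone H3 that Polycomb repressive complex 2 deposits, was profiled by ChIP-seq, the sequencing of DNA that an antibody pulls down with chromatin, in sciatic nerve from male C57/BL6 mice at 8 weeks of age. There was 1 ChIP library and 1 input library, with no treatment, genotype or time compared, and how many animals contributed to each is not stated in the sources used here. The data are 1 deposited list of peaks from the ChIP library, so every value describes a single preparation, variation between animals was not measured, and no p-value was computed.

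Guidance cues steer growing axons by attraction or repulsion at the growth cone, and the same molecules act in vessels, immune cells and glia. In peripheral nerve they are known from axon regrowth and from the sorting of Schwann cells and fibroblasts after injury. Polycomb-marked promoters are in general those of genes held silent in a cell type, and many of them are rich in CG dinucleotides. Sciatic nerve holds Schwann cells, fibroblasts, vessels and immune cells together with axons, whose neuronal cell bodies and nuclei lie elsewhere. The nerve was not sorted, so a strong mark in few cells and a weak mark in many cells cannot be told apart in any value below.

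A gene was called marked when at least 1 peak overlapped its annotated span, extended by 2 kb on each side. The deposited score of each peak was read as a whole number of reads, since nearly all scores were whole multiples of a single step. The 6018 peaks held 185225 reads, with 10 reads in the smallest peak and a median of 14. Counting error alone places the smallest peaks between 4.795 and 18.39 reads (exact Poisson, 95%), and all intervals here cover counting error only. The list held no peak below 10 reads, and the intervals take no account of that lower limit. Marker genes of the cell types in the tissue were looked up in the same way. Among Schwann cell markers, small peaks lay at Egr2 (18 reads), Sox10 (11 reads) and Mbp (11 reads). Counts for the other markers are given beside the share of all genes marked, weighted to the same classes of gene length. A peak was found at 1 of 6 fibroblast and perineurial (9.55%), 1 of 5 endothelial and mural (12.9%) and 0 of 5 macrophage markers (12.5%), counts that are near those shares in lists this short. It was found at 11 of 12 neuron markers (13.2%), 8 of them with a peak of at least 20 reads, and at 4 of 4 epithelial markers (10.7%). Peaks show where the mark was called and not whether a gene was expressed.

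The printed promoters, except that of the unmarked Robo4, had a peak within 2 kb of the gene start. They belong to ephrin, Eph receptor, netrin receptor and Robo genes. Each is the 250 bases before the annotated gene start, from RefSeq (GRCm38.p6, the mm10 build), written 5′ to 3′ on the strand of the gene, with CG dinucleotides in capitals. Of 71 members, 61 had a start in this promoter table. Epha10, Epha6 and Efna5 are shown because their whole 300-base promoter window, which adds 50 bases after the start, lay inside a peak.
Epha10, chr4:124881535-124881784, plus strand: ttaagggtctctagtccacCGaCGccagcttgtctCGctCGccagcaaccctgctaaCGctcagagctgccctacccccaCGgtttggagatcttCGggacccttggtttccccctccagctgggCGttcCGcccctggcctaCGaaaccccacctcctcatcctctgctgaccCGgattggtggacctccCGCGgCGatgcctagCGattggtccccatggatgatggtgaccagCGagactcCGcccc
Epha6, chr16:60605532-60605781, minus strand: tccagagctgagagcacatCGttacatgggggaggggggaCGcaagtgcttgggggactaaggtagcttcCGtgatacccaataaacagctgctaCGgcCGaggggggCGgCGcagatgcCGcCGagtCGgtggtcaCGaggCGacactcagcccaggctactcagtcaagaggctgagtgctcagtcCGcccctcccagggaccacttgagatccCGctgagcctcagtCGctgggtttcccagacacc
Efna5, chr17:62881318-62881567, minus strand: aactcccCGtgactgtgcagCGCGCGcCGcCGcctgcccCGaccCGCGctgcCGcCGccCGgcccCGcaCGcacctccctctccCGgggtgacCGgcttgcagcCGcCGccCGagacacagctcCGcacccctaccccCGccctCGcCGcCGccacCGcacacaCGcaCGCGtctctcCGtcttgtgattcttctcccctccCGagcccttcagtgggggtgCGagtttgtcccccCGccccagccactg
Unc5b and Epha8 are shown because they had the most reads of the members with a start in the table, while no peak overlapped the window itself.
Unc5b, chr10:60831582-60831831, minus strand: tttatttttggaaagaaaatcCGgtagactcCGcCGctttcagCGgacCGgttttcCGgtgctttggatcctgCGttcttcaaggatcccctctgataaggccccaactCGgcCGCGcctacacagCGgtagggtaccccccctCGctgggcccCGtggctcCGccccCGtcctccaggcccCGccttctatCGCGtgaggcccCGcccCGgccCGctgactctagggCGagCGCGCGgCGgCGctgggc
Epha8, chr4:136956817-136957066, minus strand: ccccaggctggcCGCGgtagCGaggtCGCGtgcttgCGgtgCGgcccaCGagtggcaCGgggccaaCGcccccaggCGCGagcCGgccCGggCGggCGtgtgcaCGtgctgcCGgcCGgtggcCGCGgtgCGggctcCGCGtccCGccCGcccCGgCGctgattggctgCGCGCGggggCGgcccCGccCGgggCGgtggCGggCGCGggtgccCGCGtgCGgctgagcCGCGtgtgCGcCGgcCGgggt
Robo3 and Robo4 are shown because they are neighbours on chromosome 9, the first marked and the second not.
Robo3, chr9:37433176-37433425, minus strand: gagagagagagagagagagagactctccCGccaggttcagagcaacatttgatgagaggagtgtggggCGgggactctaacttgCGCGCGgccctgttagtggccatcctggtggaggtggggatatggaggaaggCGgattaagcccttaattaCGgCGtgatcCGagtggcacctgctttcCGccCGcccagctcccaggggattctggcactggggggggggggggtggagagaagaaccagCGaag
Robo4, chr9:37401722-37401971, plus strand: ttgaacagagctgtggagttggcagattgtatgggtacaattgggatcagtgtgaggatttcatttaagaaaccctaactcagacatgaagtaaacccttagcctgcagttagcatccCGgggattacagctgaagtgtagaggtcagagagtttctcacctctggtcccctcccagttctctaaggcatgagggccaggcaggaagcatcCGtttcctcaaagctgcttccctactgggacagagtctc
These stretches held 46 CG dinucleotides in Epha8, 32 in Efna5, 27 in Unc5b, 17 in Epha10, 15 in Epha6, 12 in Robo3 and 2 in Robo4.

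H3K27me3 was found at 24 of the 71 guidance genes (33.8%), against 10.5% of all protein-coding genes. Summed over the peaks of a gene, reads were most numerous at the netrin receptor gene Unc5b and the ligand gene Slit1. Most other marked genes carried 1 or 2 small peaks. Receptors were marked in 14 of 34 cases (41.2%) and ligands in 10 of 37 (27%). For all genes weighted to the same length classes, the shares were 13.9% and 13.2%. The difference between receptors and ligands was not tested. The Slit, Robo and Unc5 families had a peak at nearly every gene. These calls rested on small peaks, since only Slit1, Robo3 and Unc5b in these 3 families had a peak of at least 20 reads. Semaphorins were marked at 3 of 20 genes (15%), near the 13.0% of all genes weighted to the same length classes. Neither of the 2 neuropilins had a peak, where the weighted share of 18.0% amounts to only 0.359 genes. The count of marked members depended on small peaks, since with peaks of at least 20 reads it was 10 of 71 (14.1%), against 5.46% of all genes. Several peaks were found at 11 of the 71 (15.5%), against 4.13% of all genes with 2 or more. This share of all genes and that for peaks of at least 20 reads were not weighted to gene length. Counted within 2 kb of an annotated end alone, 16 members were marked (22.5%, against 8.59% of all genes), 6 of them ligands.

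**Figure D1:**
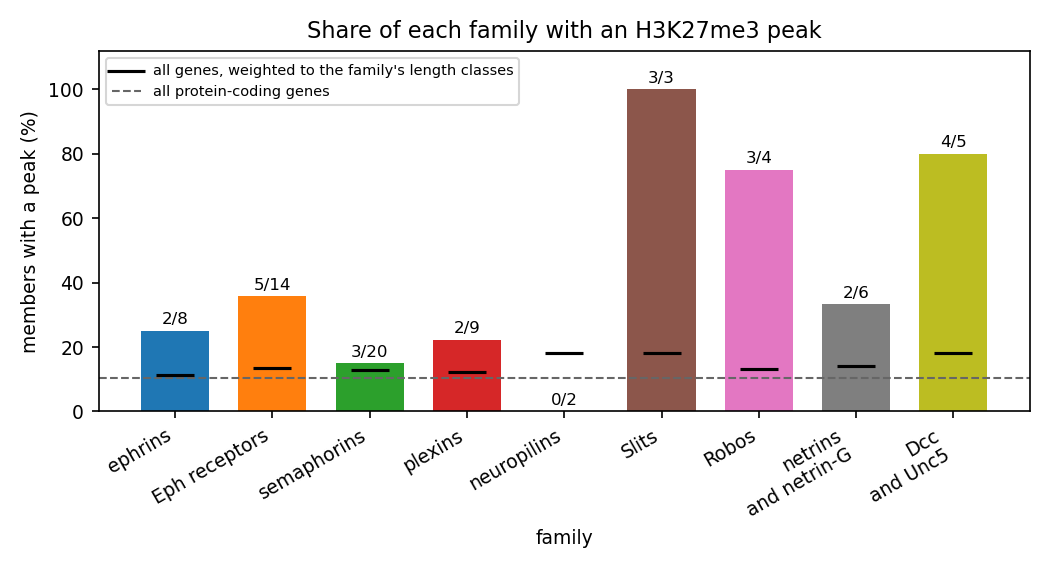
Bars give the percentage of genes in each family with an H3K27me3 peak in the gene or its 2 kb flanks, with the counts above them. The dashed line is the share over all protein-coding genes (10.5%), and black marks give that share weighted to each family's gene lengths. Slits (3 of 3), Robos (3 of 4) and the Dcc and Unc5 receptors (4 of 5) stand highest, and neuropilins (0 of 2) and semaphorins (3 of 20) lowest.

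Long genes can hold more peaks, and guidance genes are long. The median member spanned 53374 bp, against 17169 bp over all protein-coding genes. Genes were therefore also read within 5 equal classes of gene length. In the longest class, from 57145 bp upwards, 19 of 35 members were marked (54.3%), against 18.0% of all genes of that class. No member fell in the shortest class, where 6.1% of genes were marked. In the classes between, the counts from short to long were 1 of 8 (12.5%, against 10.7% of all genes), 2 of 15 (13.3%, against 8.25%) and 2 of 13 (15.4%, against 9.6%). Weighted to the members' own length classes, the share over all genes was 13.6%, or 9.62 genes out of 71. The longest class ran from 57145 to 2390387 bp, so differences of length within it were not weighted, here or in the shares by family. Among members over 100 kb, 17 of 33 were marked (51.5%, against 22.0% of all genes of that length), and 13 of these 17 had a single peak. Among members of at most 100 kb, 7 of 38 were marked (18.4%, against 9.09%), and all 7 had 2 or more peaks.

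**Figure D2:**
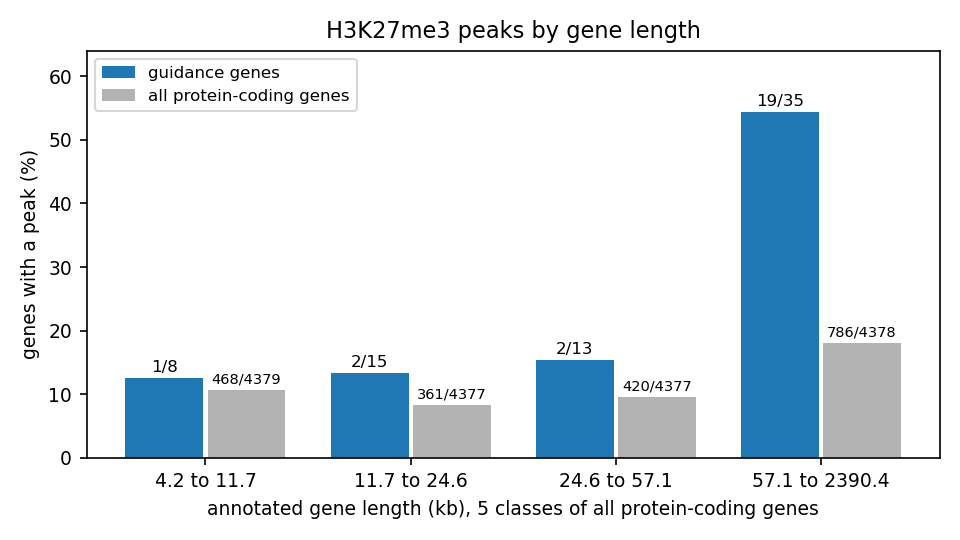
Bars give the percentage of genes with a peak in each of 5 classes of annotated gene length (kb), for guidance genes and for all protein-coding genes, with counts above. No member falls in the shortest class, which is left out. The members stand furthest above all genes in the longest class, with 19 of 35 against 786 of 4378.

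The 24 marked genes held 51 peaks with 1038 reads, 0.56% of the reads in all peaks, and no peak was shared between members. Their peaks were small, with a median of 13 reads and 653 bp and a widest peak of 3095 bp. Peaks in or near any protein-coding gene had a median of 15 reads and 727 bp, and the widest spanned 26408 bp. Read density had a median of 22.0 reads per kb in member peaks and 21.4 in the others named. The reads were unevenly spread, and the 5 genes with the most, Unc5b, Slit1, Epha8, Epha10 and Robo3, held 600 reads (57.8%). At the other end, 11 marked members had at most 16 reads in all. The median marked member had 21 reads and 853.5 covered bases, against 26 reads and 1149.5 covered bases over all 2302 marked genes.

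**Figure D3:**
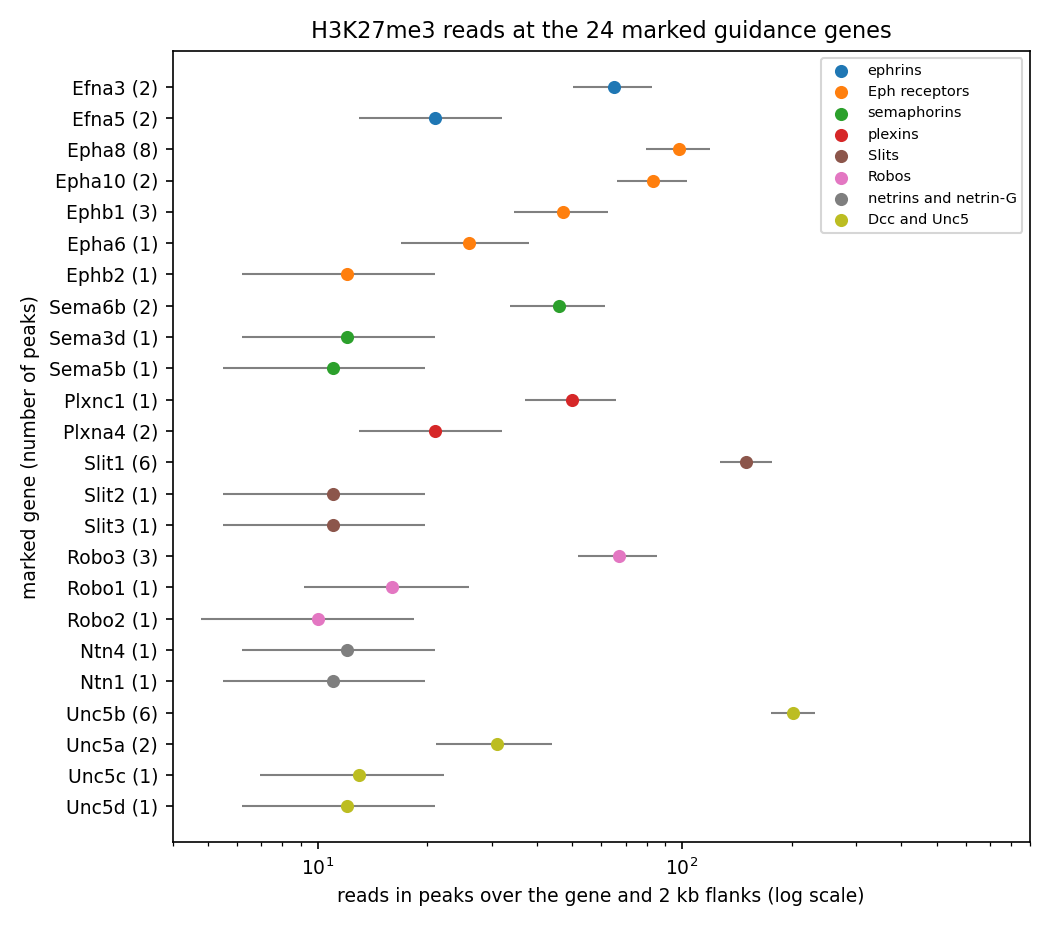
Each point is the number of reads in all peaks over a marked gene and its 2 kb flanks (log scale), with the exact 95% Poisson interval as a line and the number of peaks in brackets. Colours give the family. Unc5b (202 reads) and Slit1 (150 reads) stand to the right of the others, and 11 genes lie at 16 reads or fewer.

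Ephrins, the membrane-bound ligands of Eph receptors that signal where cells touch, were marked at 2 of 8 genes, both of the GPI-anchored A class. This was 25%, beside 11.2% for all genes weighted to the same length classes. Efna3 had 65 reads (50.17 to 82.85) in 2 peaks of 1469 and 1518 bp, which covered 22.9% of the gene with its flanks, the largest covered share among the members. The second of these peaks (chromosome 3, 89320431 to 89321948, 36 reads) lay over the more downstream of the 2 annotated starts. Its neighbours on chromosome 3 were unmarked, with Efna4 10453 bp and Efna1 32947 bp away, so of these 3 neighbours only Efna3 was marked. Efna5, the ligand of several A-class receptors, had 21 reads (13.0 to 32.1) in 2 peaks of 500 bp, the shortest width in the list. The Efna5 peak of 11 reads (chromosome 17, 62881071 to 62881570) covered the start, whose promoter is printed above, and a peak of 10 reads followed 867 bp inside the gene. Efna2 and the transmembrane B-class genes Efnb1, Efnb2 and Efnb3 had no peak.

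Eph receptors, the receptor tyrosine kinases that bind ephrins, were marked at 5 of 14 genes (35.7%, beside 13.4% on the length-weighted share of all genes), in every case within 2 kb of the start. Epha8 had 98 reads (79.56 to 119.4) spread over 8 peaks of 10 to 22 reads, the largest number of peaks at any member. These formed a run of 9 peaks within 5 kb of each other over 18162 bp (chromosome 4, 136942773 to 136960934, 108 reads), of which the ninth lay beyond the flank. No peak of the run covered the Epha8 start, the nearest peaks lying 174 bp downstream and 345 bp upstream of it. The 300-base Epha8 window, with 84.3% G and C, had the most CG dinucleotides of any member window, 56 in all. Epha10, a receptor that lacks kinase activity, had 83 reads (66.11 to 102.9) in 2 peaks. The larger Epha10 peak (chromosome 4, 124880987 to 124883343, 2357 bp, 61 reads) covered the start and also came within 2 kb of the neighbouring gene Maneal. The second Epha10 peak, of 22 reads, lay 12416 bp inside the gene.

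The remaining marked Eph receptors carried less. Ephb1 had 47 reads (34.53 to 62.5), 24 of them in a peak of 1229 bp that began 15 bp inside the gene (chromosome 9, 102353450 to 102354678). Another Ephb1 peak of 12 reads lay 1726 bp upstream and the last, of 11 reads, 86815 bp inside. Epha6, a gene of 969479 bp, had a single peak of 26 reads (16.98 to 38.1; chromosome 16, 60604830 to 60605935). It covered the only start that the promoter table lists for Epha6, and lay 4976 bp inside the end of the annotated span at the higher coordinate. Ephb2, known for its part in Schwann cell sorting during nerve repair, had 12 reads (6.201 to 20.96) in a peak of 637 bp that lay 23 bp outside the annotated span, upstream. Epha1, Epha2, Epha3, Epha4, Epha5, Epha7, Ephb3, Ephb4 and Ephb6 had no peak. Among them, Epha5 lay 3031993 bp from the nearest peak, Epha7 2969216 bp and Epha3 2937597 bp, while Epha2 lay 8941 bp from it.

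**Figure D4:**
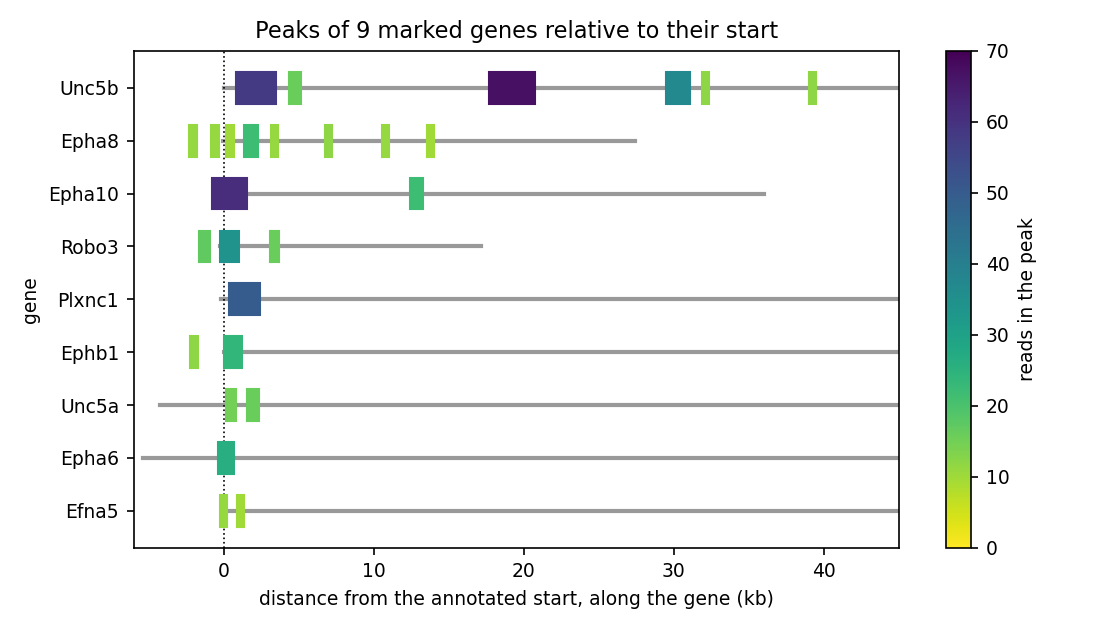
Boxes are peaks of the 9 marked genes with the most reads among those with a single annotated start in the table, placed by distance from that start along the gene (kb) and coloured by reads. Grey lines are the annotated spans, which run past the right edge for the longer genes, as does the Ephb1 peak 86815 bp inside. Unc5b has peaks over almost 40 kb of its gene, Epha8 has a row of narrow peaks on both sides of its start, and the other genes have most of their reads within a few kb of the start.

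Semaphorins, the largest family here, are secreted (class 3) or membrane-bound (classes 4 to 7) ligands that mostly repel axons. Peaks lay at 3 of 20 genes (15%), beside 13.0% for all genes weighted to the same length classes, so the share was near the background. The most reads were at Sema6b, a transmembrane semaphorin, with 46 reads (33.68 to 61.36) in 2 peaks that both lay in the flanks. The Sema6b peak of 32 reads (chromosome 17, 56120401 to 56121775) lay 1310 bp beyond the 3′ end of the gene and within 2 kb of Lrg1, and the peak of 14 reads lay 1829 bp upstream of the start. Sema3d, a secreted class 3 ligand, had 12 reads (6.201 to 20.96) in a peak that began 359 bp downstream of the start. Sema5b had 11 reads (5.491 to 19.68) in a peak 3715 bp inside its far end. Class 4 had 0 of 6 genes marked (Sema4a, Sema4b, Sema4c, Sema4d, Sema4f and Sema4g). The length-weighted share of all genes was 10.5%, or 0.632 genes out of 6, so this count was near the background. Sema3a, Sema3b, Sema3c, Sema3e, Sema3f, Sema3g, Sema5a, Sema6a, Sema6c, Sema6d and Sema7a also had no peak.

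Plexins, which transmit the semaphorin signal into the cell, had 2 of 9 genes marked (22.2%), beside 12.1% for all genes weighted to their length classes. Plxnc1, the receptor of the GPI-anchored semaphorin 7A, had 50 reads (37.11 to 65.92) in 1 peak of 2034 bp that began 375 bp downstream of the start (chromosome 10, 94942437 to 94944470). Plxna4, which binds class 3 and class 6 semaphorins, had 21 reads (13.0 to 32.1) in 2 peaks, 10 of them within the gene and 11 in a peak 1846 bp beyond its end at the higher coordinate. Plxna1, Plxna2, Plxna3, Plxnb1, Plxnb2, Plxnb3 and Plxnd1 had no peak. Neither did Nrp1 and Nrp2, the neuropilins that bind class 3 semaphorins and vascular endothelial growth factor. The 3 members on the X chromosome (Efnb1, Plxna3 and Plxnb3) were among the unmarked, and the mark was rare on that chromosome (1.55% of its protein-coding genes, against 11.1% on autosomes).

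Slits, large secreted repellents, and Robos, their receptors, were marked at 6 of 7 genes (85.7%, beside 15.2% on the length-weighted share of all genes). The system contained 1 gene with many reads on each side and several with a single small peak. Slit1 had 150 reads (127.0 to 176.0) in 6 peaks, and 238 of the 2302 marked genes had more. The largest Slit1 peak, of 2247 bp with 69 reads (chromosome 19, 41742520 to 41744766), lay 2509 bp inside the gene's end at the higher coordinate. At 30.7 reads per kb it was the densest of all member peaks. The other 5 Slit1 peaks, of 12 to 21 reads, were spread through the gene as far as 15852 bp from the opposite end. Slit2 and Slit3 had 11 reads each (5.491 to 19.68) in a single peak, which lay 2800 bp inside Slit2 and 23556 bp inside Slit3 from the start.

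Robo3, known for letting commissural axons cross the midline, had 67 reads (51.92 to 85.09) in 3 peaks of 16, 34 and 17 reads. The middle Robo3 peak (chromosome 9, 37432153 to 37433399, 1247 bp) covered the start, and the others lay 3056 bp downstream and 885 bp upstream of it. Robo4, the endothelial member of the family, ends 2021 bp from the end of Robo3 and had no peak, with the nearest peak 15456 bp away. Robo1, a gene of 1019974 bp, had 16 reads (9.145 to 25.98) in a peak over the only start that the promoter table lists for it. Robo2, of 1555468 bp, had 10 reads (4.795 to 18.39) in a peak that began 238 bp inside the most downstream of its 3 annotated starts. Peaks thus covered 12.3% of Robo3 with its flanks, but 0.0824% of Robo1 and 0.0321% of Robo2.

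Netrins are secreted relatives of laminin that attract or repel axons depending on the receptor, and netrin-G proteins are their membrane-anchored relatives. Of 6 genes, 2 were marked (33.3%, beside 14.1% on the length-weighted share of all genes), each by 1 small peak. Ntn4, a netrin of basement membranes, had 12 reads (6.201 to 20.96) in a peak 537 bp downstream of the start. Ntn1, the ligand of Dcc and the Unc5 receptors, had 11 reads (5.491 to 19.68) in a peak of 500 bp, 940 bp inside the end at the higher coordinate (chromosome 11, 68385387 to 68385886). Ntn3, Ntn5, Ntng1 and Ntng2 had no peak.

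The netrin receptors held more reads in peaks than the netrins, most of them at Unc5b. The receptor genes are also longer, with a median of 369361 bp against 79149 bp for netrins and netrin-G. The 4 Unc5 genes, whose products mediate repulsion and are dependence receptors, were all marked (beside a length-weighted share of 18.0%), with 258 reads in 10 peaks, while the 2 marked netrin genes held 23 reads. Unc5b, which also acts in vessels, had 202 reads (175.1 to 231.9) in 6 peaks that covered 9203 bp, the most reads and covered bases of any member, and 171 of 2302 marked genes had more reads. Its widest peak, of 3095 bp with 67 reads (chromosome 10, 60810807 to 60813901), lay 17680 bp inside the gene. A peak of 2685 bp with 58 reads (60828077 to 60830761) began 820 bp downstream of the Unc5b start, and the other peaks held 12, 12, 37 and 16 reads. Unc5a had 31 reads (21.06 to 44.0) in peaks of 15 and 16 reads, 153 and 1565 bp downstream of its start. Unc5c had 13 reads (6.922 to 22.23) in a peak 1472 bp upstream. Unc5d had 12 reads (6.201 to 20.96) in a peak across its end at the higher coordinate. Dcc, the receptor for netrin attraction and the second longest member at 1097616 bp, had no peak, the nearest being 1640586 bp away. The intervals of Unc5b and Slit1 did not overlap that of any other gene in their own families.

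Most marked guidance genes had a peak close to a start listed in the promoter table. Of the 61 members with a start in the promoter table, 17 had a peak within 2 kb of it (27.9%), against 7.31% of all protein-coding genes in the table. Of the 20 marked members with such a start, 17 had a peak there (85%), against 75% of all marked genes in the table, and the exceptions were Slit2, Slit3 and Sema5b. Among the 41 peaks of these members, 24 lay within 2 kb of a start, with the centre downstream of it in 16 and upstream in 8. A peak covered the start itself at 6 of the 17 genes (35.3%), which were Efna3, Efna5, Epha6, Epha10, Robo1 and Robo3. Over all 1278 genes with a peak within 2 kb of a start the share was 60.6%. At Unc5b, Plxnc1, Ephb1 and Unc5a the nearest peak began 820, 375, 15 and 153 bp downstream of the start. With 17 genes this share rests on few members, and the difference was not tested. At Epha6, Robo1, Robo2 and Unc5a the start near the peak lies inside the annotated span, with no peak within 2 kb of either end.

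Promoter windows near peaks had a higher median CG count than the other member windows. The 18 member windows with a peak within 2 kb of their start held a median of 24 CG dinucleotides in 300 bases (quartiles 17 and 33.25), and the 59 without one held 17 (quartiles 7 and 27). The ranges overlapped widely, from 8 to 56 with a peak and from 2 to 42 without, and Sema3d was the lowest of the marked starts. The same order was found over all genes, with a median of 18 in windows with a peak and 12 in windows without. CG content did not separate the groups, since Sema3c (42), Slit3 (41) and Nrp2 (37) had high counts and no peak near the start. Windows of 1 gene can overlap, so windows are not independent. The motif GAGAG, searched on both strands, was in 13 of the 18 windows with a peak (72.2%), 37 of the 59 without (62.7%) and 62.0% of all 21263 windows. The YY1-like motif GCCATNTT, also on both strands, was in 0 of 18, 2 of 59 and 6.37% of all windows. Neither motif contains CG or the other motif, and a match is a description of letters only.

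**Figure D5:**
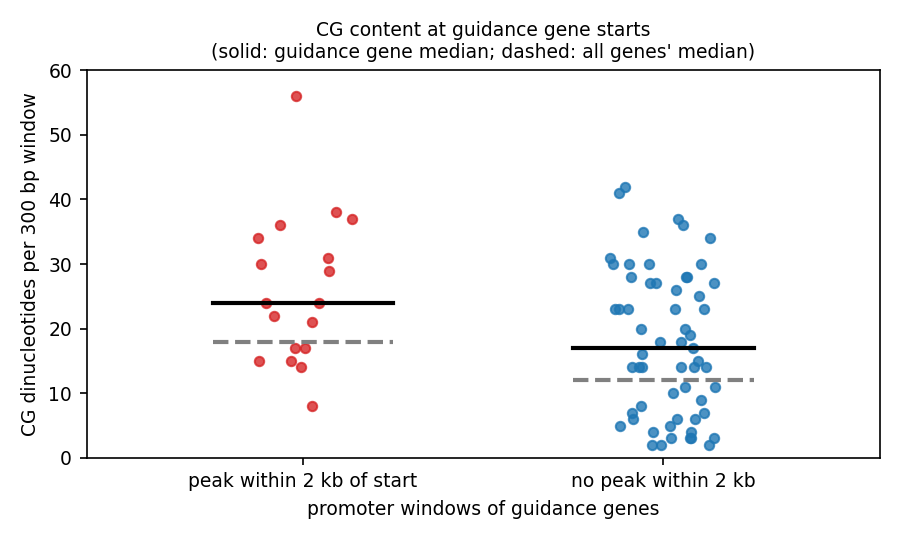
Each point is the number of CG dinucleotides in a 300-base promoter window of a guidance gene, spread sideways for visibility, with the member median as a solid line and the median of all genes as a dashed line. Windows with a peak within 2 kb of the start (18) have a median of 24 and those without (59) a median of 17, and the points overlap.

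The flank of 2 kb set the call for few members. Just inside it, Ephb2, Sema6b and Unc5c were marked by flank peaks alone, the nearest of them 23, 1310 and 1472 bp from the annotated end. Just outside it, Ntng2 had a peak 2954 bp and Sema3f a peak 3868 bp from the gene, and the next was Epha2.

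Genes of the same pathway outside these families were read in the same way. Of 36 other guidance cues and receptors 9 were marked (25%, beside 13.6% for all genes weighted to their length classes), 5 of them with a peak of at least 20 reads. Dscaml1, a homophilic adhesion molecule, had 81 reads in 4 peaks, Cntn2, a contactin of axons, had 57 in 4, and Draxin, a secreted repellent that binds netrin receptors, had 53 in 2. The adhesion gene Chl1 had 160 reads in a single peak of 500 bp, or 320 reads per kb, against a median of 21.0 over all peaks. Of 53 intracellular effectors of guidance receptors 8 were marked (15.1%, beside 15%), so their share was near the background. The most reads were at Crmp1 (59 in 3 peaks) and Dpysl2 (32 in 1), which encode collapsin response mediators, at the Rac regulator Chn2 (28 in 2) and at the kinase Pak1 (25 in 2).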

How the data were processed

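The deposited file was 1 peak list of the ChIP library. Per the labels' protocols, chromatin was sonicated to 0.5 to 2 kb, which limits how sharply a peak can be placed. Per the submitters' processing notes, Bowtie and build mm10 were used. How peaks were called, and with what use of the input, is not stated in the sources used here. Input values were not analysed here. The authors deposited a score for each peak without a stated meaning. Of 6018 scores, 6017 (99.98%) were multiples of 2.573 to within 0.06, so the score divided by this step was taken as a number of reads, the lowest being 10. A score covers the whole peak, including bases outside a gene window.

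Genes and starts came from RefSeq tables (GRCm38.p6). No transcript annotation was used, so exons and introns were not told apart. Strand came from the promoter table, for 61 members. That table's strand was checked on 1683 overlapping windows of opposite strand, all of which matched. Values were computed in Python 3.11.15 with pandas 2.3.3 and scipy 1.17.1, and the overlap code was tested on simulated data. Peak positions are 1-based. The members and gene lists were chosen with earlier results of these data known. For each family, the 5 members with the most reads are given with values, as are marked members of at most 11 reads. Unmarked members are named, and for each further list the 4 genes with the most reads. Settings varied were the flank (none or 5 kb), gene ends only, peaks of at least 20 reads or of at least the median score (36.0), and peaks at least 50% inside the window. Start windows of 1 and 5 kb were also tried. The full count over Schwann cell markers is not reported here.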

Additional observations from a re-analysis of the deposited data

How the results depend on the processing

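Leaving out peaks within 2 kb of another protein-coding gene was chosen after seeing the data. The count of 24 marked members was most affected by peak size: it was 10 with peaks of at least 20 reads and 12 with peaks at or above the median score. Under the same pair of settings ligands fell from 10 to 3 and 3, receptors from 14 to 7 and 9, and members with a peak near the start from 17 to 8 and 11. With gene ends only, 16 members and 6 ligands were marked, since long genes such as Slit1, Robo1 and Epha6 have their peaks more than 2 kb inside the annotated span. The share of members marked stayed above that of all genes, not weighted to gene length, in each setting where both were computed. An example is 14.1% against 5.46% with peaks of at least 20 reads. The 1038 reads became 905 without flanks, 496 with gene ends only, 588 with peaks of at least 20 reads, 746 with peaks at or above the median score and 945 without peaks near another gene. No flank left 21 members marked, without Ephb2, Sema6b and Unc5c, and a flank of 5 kb gave 26, adding Ntng2 and Sema3f. Of the 24 marked members, 14 had no peak of at least 20 reads, and for these the low number of reads per peak limits what can be said. No paired analysis was possible because there is 1 ChIP library and no test.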
